A study of Mus musculus with 12 samples.

Results

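The genes described here carry dietary fatty acid into the intestinal epithelial cell and build it into triglyceride. They are 10 in number: the cytosolic binding proteins Fabp1, Fabp2 and Fabp5, the uptake proteins Cd36 and Slc27a4, the acyl-CoA synthetases Acsl5 and Acsl3, and the acyltransferases Mogat2, Dgat1 and Dgat2. They were taken as a named list of pathway genes. All 10 of the 10 were found among the 23366 gene rows of the count files, and all 10 were among the 15342 genes that passed the filter on low counts. The study is an RNA-seq comparison of mouse small-intestinal epithelium in 12 libraries, 3 in each of 4 groups.

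The E12.5 and E14.5 groups are epithelium of embryonic small intestine, sorted as living EpCAM-positive cells without CD31 and CD45. The ISC group is adult crypt cells with high Lgr5-EGFP fluorescence, a reporter of intestinal stem cells. The AE group, named enterocytes by the labels, is epithelium shaken from adult villi and put through the same gate on EpCAM, CD31 and CD45 as the embryo samples. Adult mice were males carrying Lgr5EGFP-Cre-ERT at postnatal day 60, so the ISC and AE groups share the reporter allele. No floxed allele or drug is named. All 12 libraries carry the strain label mixed C57BL/6 CD1. Each E12.5 library came from a pool of 20 embryos, each adult library from 1 gut, and the number of E14.5 embryos per library is not given in the sources used here. In all 6 embryonic libraries the age label names the other embryonic stage than the title. Groups here follow the titles. Following the age labels instead would reverse every sign in the E14.5 against E12.5 comparison and would exchange E14.5 with E12.5 in the comparisons with ISC and AE.

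The villus sort did not select enterocytes by a marker of their own. Summed over 7 enterocyte markers (such as Alpi, Sis and Apoa4), the AE libraries reached 25916 to 53150 counts per 1000000 gene counts (CPM), against 340.6 to 1363 in the other 9 libraries. Their summed level of 5 goblet cell markers was 16783 to 27150 CPM, against at most 1327 CPM elsewhere. The sum of 5 stem cell markers was 6992 to 7679 CPM in ISC and at most 829.6 CPM in the other 3 groups. In bulk libraries of this kind, fewer cells of a type and less RNA per cell cannot be told apart. CPM here are scaled between libraries by the trimmed mean of M-values (TMM), and total gene counts per library ran from 12587626 to 45190749.

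As background, fatty acids released in the gut lumen enter the enterocyte by diffusion and with the help of membrane proteins, are held in the cytosol by small binding proteins, and are activated by joining to coenzyme A. The enterocyte then joins them to monoacylglycerol, which Mogat2 turns into diacylglycerol, and Dgat1 or Dgat2 adds the last acyl chain. The triglyceride leaves the cell in chylomicrons or rests for a time in cytosolic droplets. Most other tissues start instead from glycerol 3-phosphate.

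The promoters of the 2 binding proteins with the largest adult levels and of the 2 synthetases are shown. Fabp1 and Fabp2 had the highest villus levels per kb of the members, and Acsl5 and Acsl3, which do the same chemistry, took different courses. Each sequence runs from 250 bases before to 50 bases after the RefSeq gene start (GRCm38.p6, a later build than the mm9 of the counts). Capitals mark a match, on either strand, to any of 9 motifs searched: TATAAA (the element that places transcription starts), CCAAT (bound by NF-Y), GGGCGG (the GC box), CAAAGTCCA (known for Hnf4), AGGTCA (the nuclear receptor half-site), AGGTCANAGGTCA (the direct repeat of that half-site, which contains it), AGATAA (known for Gata factors), GTTAAT (the Hnf1 half-site) and TTTATNG (known for Cdx factors).
Fabp1, chr6:71199629-71199928, plus strand: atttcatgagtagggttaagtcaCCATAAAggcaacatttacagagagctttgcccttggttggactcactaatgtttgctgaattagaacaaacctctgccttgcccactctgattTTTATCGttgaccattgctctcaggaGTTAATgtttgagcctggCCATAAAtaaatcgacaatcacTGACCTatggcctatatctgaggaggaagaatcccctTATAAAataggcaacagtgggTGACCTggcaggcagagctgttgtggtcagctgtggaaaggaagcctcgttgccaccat
Fabp2, chr3:122894822-122895121, plus strand: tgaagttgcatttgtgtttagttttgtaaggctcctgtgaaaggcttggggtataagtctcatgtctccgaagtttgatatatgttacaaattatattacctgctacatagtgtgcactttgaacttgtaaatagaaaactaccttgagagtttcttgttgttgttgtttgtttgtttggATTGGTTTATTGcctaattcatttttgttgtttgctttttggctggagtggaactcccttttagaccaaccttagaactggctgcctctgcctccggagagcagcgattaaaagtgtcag
Acsl5, chr19:55253119-55253418, plus strand: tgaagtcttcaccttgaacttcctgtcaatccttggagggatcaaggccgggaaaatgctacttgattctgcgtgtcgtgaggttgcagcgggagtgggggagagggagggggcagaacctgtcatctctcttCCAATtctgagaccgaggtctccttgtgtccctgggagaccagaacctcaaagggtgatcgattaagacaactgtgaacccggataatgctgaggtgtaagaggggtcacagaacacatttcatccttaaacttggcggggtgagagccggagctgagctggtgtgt
Acsl3, chr1:78657575-78657874, plus strand: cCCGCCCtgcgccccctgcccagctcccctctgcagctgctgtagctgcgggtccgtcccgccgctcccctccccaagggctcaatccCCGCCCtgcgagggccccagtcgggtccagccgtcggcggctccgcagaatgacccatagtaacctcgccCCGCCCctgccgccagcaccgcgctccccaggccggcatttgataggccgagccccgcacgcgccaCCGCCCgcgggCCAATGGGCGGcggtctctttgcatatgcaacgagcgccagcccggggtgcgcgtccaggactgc
The Fabp1 window held TATAAA at -30 to -25 from the gene start, 3 Cdx motifs, 2 nuclear receptor half-sites and 1 Hnf1 half-site. Among 27025 mouse promoters of the same length, 14.2% held TATAAA, 11.3% the Cdx motif, 16.0% the half-site and 7.20% the Hnf1 half-site. These shares count promoters with at least 1 match at any position, so they are no measure of repeated or placed matches. In Fabp2 a CCAAT box on the minus strand at -70 to -66 adjoined a Cdx motif at -65 to -59. The Acsl5 window held 1 CCAAT box. The Acsl3 window held 1 CCAAT box and 5 GC boxes, motifs found at least once in 37.9% and 35.9% of promoters. GC content was 45% for Fabp1, 38.67% for Fabp2, 53% for Acsl5 and 74% for Acsl3, against a median of 52.7% over all promoters. Of the 10 genes, 6 matched the promoter table (Fabp1, Fabp2, Cd36, Slc27a4, Acsl5 and Acsl3). A match of letters is a description of the sequence and no evidence of binding.

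In 8 of the 10 genes the villus level was above that of all 3 other groups, the exceptions being Fabp5 and Acsl3. The share of all genes tested that were highest in AE was not computed. Pair by pair, 38.4%, 36.7% and 32.6% of all genes tested were called higher in AE than in E12.5, E14.5 and ISC. The 10 genes together took 0.0434% to 0.0469% of gene counts at E12.5, 0.0895% to 0.0929% at E14.5, 0.0577% to 0.0910% in ISC and 0.697% to 1.6% in AE, where Fabp1 and Fabp2 alone took 0.415% to 1.23%. Between E12.5 and E14.5, 7 members rose and 1 fell, where 49.2% of all genes tested were called either way, 23.6% higher and 25.6% lower. Between E14.5 and ISC, 3 were higher and 5 lower in the stem cells, with 60.7% of all genes called (30.2% higher and 30.6% lower). Between ISC and AE, 9 were higher in villus cells and 0 lower, with 67.8% of all genes called (32.6% higher and 35.2% lower). At an unadjusted p under 0.05, and by DESeq2 and limma-voom at an adjusted p under 0.05, the count of members lower in AE than in ISC was also 0. Under upper-quartile scaling that count was 1 (Acsl3, log2 -0.34, adjusted p = 0.0163 by edgeR). Counted by libraries instead of the test, the 2 groups of a step did not overlap for 10, 7 and 9 of the 10 members, where 70.6%, 72% and 66.3% of all genes tested were separate in this way. The median log2 fold change of the 10 members was 1.13, -0.52 and 4.59 over these 3 steps, against -0.02, -0.005 and -0.05 over all genes tested. Calls are adjusted p under 0.05 from edgeR's quasi-likelihood test over all genes, and fold changes are on the log2 scale with their standard error (SE).

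**Figure D1:**
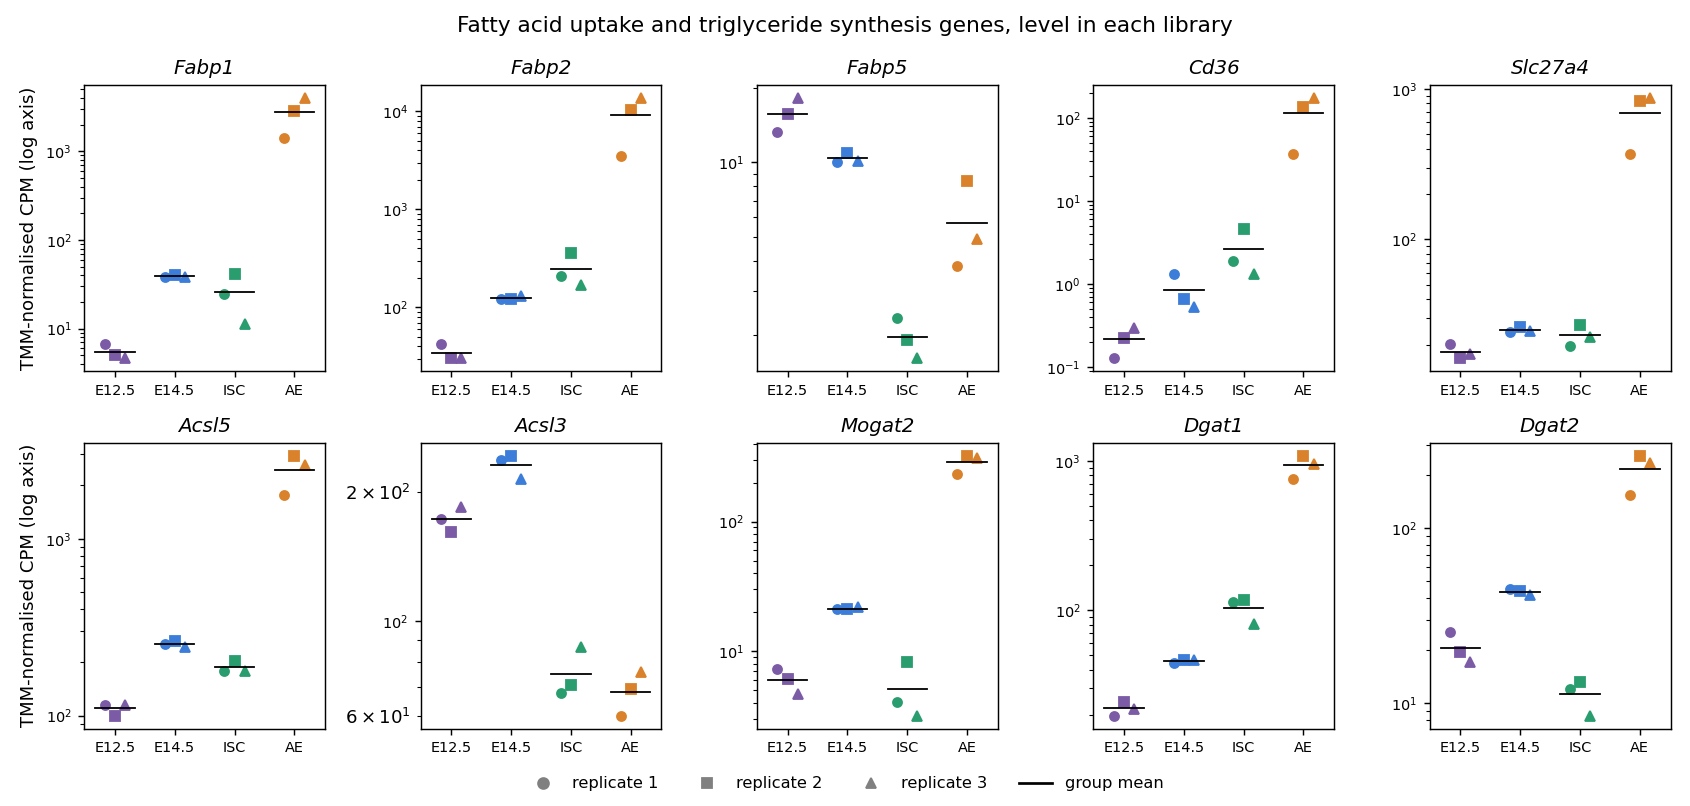
TMM-normalised CPM (log axis, 1 scale per panel) of the 10 genes in each library, with circles, squares and triangles for replicates 1, 2 and 3 and a line at the group mean. For 9 genes all 3 AE libraries lie above all 3 ISC libraries, Acsl3 has its highest values in the embryonic groups, and AE replicate 1 is the lowest AE library in all 10 panels.

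Fabp1, the binding protein shared by liver and gut, was scarce at E12.5 and among the most abundant transcripts of the adult villus. Its level was 6.67, 4.97 and 4.66 CPM in the E12.5 libraries and 38.3, 39.9 and 37.8 CPM in the E14.5 libraries. ISC gave 24.3, 41.5 and 11.3 CPM, and AE gave 1418, 2819 and 3999 CPM. Only the ISC and E14.5 libraries overlapped. The rise from E12.5 to E14.5 was 7.09-fold (log2 2.83, SE 0.42, edgeR adjusted p = 9.67e-05), and AE exceeded ISC 107-fold (log2 6.74, SE 0.48, adjusted p = 3.43e-08). ISC and E14.5 were not separated (log2 -0.60, 95% interval -1.43 to 0.23, adjusted p = 0.198), but without ISC replicate 2 Fabp1 was lower in ISC (log2 -1.14, adjusted p = 0.0228). Liver makes Fabp1 too, so 5 liver markers were read. They summed to 103.8 to 161.0 CPM in the embryonic libraries, 18.7 to 35.3 in ISC and 90.3 to 131 in AE, but the AE sum was nearly all Afp (104 ± 20.9 CPM, SD, n = 3). Ttr was 49.8 ± 4.78 CPM at E12.5, 52.8 ± 0.464 at E14.5, 27.8 ± 8.58 in ISC and 6.35 ± 0.682 in AE. Serpina1a was 31.4 to 39.0 CPM at E12.5, 13.3 to 15.9 at E14.5 and at 0 in 5 of the 6 adult libraries, Alb was at most 2.94 CPM in any library, and Apoh was at 0 at E12.5. The part of liver RNA in the Fabp1 values was not tested.

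Fabp2, the form largely restricted to the intestine, was likewise lowest at E12.5 and highest in the villus, but here stem cells lay above E14.5. E12.5 gave 42.1, 30.5 and 30.8 CPM, E14.5 gave 123, 121 and 131, ISC gave 209, 356 and 168, and AE gave 3549, 10309 and 13728. No 2 groups overlapped. Fabp2 rose 3.63-fold from E12.5 to E14.5 (log2 1.86, SE 0.39, adjusted p = 0.00128) and was 37.6-fold higher in AE than in ISC (log2 5.23, SE 0.44, adjusted p = 1.62e-07). The ISC level was 1.95-fold above E14.5 (log2 0.97, SE 0.37, adjusted p = 0.0379). That call was lost in 7 of 19 alternatives: DESeq2 (adjusted p = 0.0544), RLE scaling (0.0530), limma-voom (0.0678), without any 1 of the E14.5 libraries (0.0746 to 0.0916) and without ISC replicate 2 (log2 0.59, adjusted p = 0.209).

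Per kb of exon, Fabp2 ranked 1 of 21735 genes with a known length in the AE group, at 9527 ± 5367 CPM per kb (SD, n = 3), and Fabp1 ranked 4 at 4963 ± 2336. At E12.5 the same 2 genes ranked 1495 and 5274. In AE replicate 3, the library with the most of both, Fabp1 and Fabp2 together made up 1.23% of all gene counts.

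Fabp5, a binding protein known from skin and many other epithelia, ran the other way. E12.5 libraries gave 13.3, 15.8 and 18.3 CPM and E14.5 libraries 10.1, 10.9 and 10.2. ISC libraries gave 2.34, 1.91 and 1.61 CPM and AE libraries 3.78, 8.41 and 4.91. The levels fell in the order E12.5, E14.5, AE and ISC, and no 2 groups overlapped. Stem cells held 5.37-fold less than E14.5 epithelium (log2 -2.42, SE 0.27, adjusted p = 2.62e-06) and AE held 2.89-fold more than ISC (log2 1.53, SE 0.28, adjusted p = 0.000253). The fall from E12.5 to E14.5 was small (log2 -0.60, SE 0.23, adjusted p = 0.0399) and did not pass when any of 7 single libraries was left out, with adjusted p reaching 0.154 without E12.5 replicate 3. Of the 50-base stretches in Fabp5 transcripts, 5.48% recur in other genes of the reference, among them Fabp5l2 and Gm6166, so part of its count may be split with these copies.

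Cd36, a scavenger receptor that also takes up long-chain fatty acid, was nearly undetected in the embryo. E12.5 gave 0.128, 0.222 and 0.293 CPM (17 counts over the group) and E14.5 gave 1.32, 0.664 and 0.527 (99 counts). ISC gave 1.90, 4.63 and 1.30 CPM (30, 85 and 30 counts) and AE gave 36.6, 134 and 174. AE lay above every other library, the E14.5 and E12.5 libraries did not overlap, and the ISC and E14.5 libraries did. AE exceeded ISC 44.1-fold (log2 5.46, SE 0.57, adjusted p = 1.17e-06), or 72.2-fold without ISC replicate 2. The E14.5 against E12.5 difference did not pass (log2 2.01, SE 0.95, adjusted p = 0.0957), but it did under DESeq2 (adjusted p = 0.0261), in a fit of its 6 libraries alone (adjusted p = 0.00215) and without AE replicate 1 (adjusted p = 0.0172). ISC was called above E14.5 (log2 1.58, SE 0.65, adjusted p = 0.0477), but the call was lost in 12 of 19 alternatives, 8 of them omissions of single libraries. The 12 included the omission of each of the 3 E12.5 libraries, limma-voom (adjusted p = 0.321) and the omission of ISC replicate 2 (log2 0.86, adjusted p = 0.323). Leaving out ISC replicate 2 also moved the ISC excess over E12.5 from 12-fold (log2 3.58, SE 0.87, adjusted p = 0.00211) to 7.33-fold, and limma-voom did not call it (log2 3.34, adjusted p = 0.0860).

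Cd36 is also made by endothelium, fat cells and macrophages. Summed endothelial markers (7 genes) reached at most 6.53 CPM in any library and 1.03 to 1.88 CPM in AE, where Cdh5 and Emcn were at 0. The 5 adipocyte markers summed to 0.114 to 0.408 CPM in AE, with Adipoq, Lep and Retn at 0. The 7 white blood cell markers summed to 36.8 to 66.0 CPM in AE and 31.6 to 32.7 in ISC. Most of this was Itgam (mean 34.5 CPM in AE and 19.6 in ISC) and Cd68 (10.8 in each). Each other marker of this list, Ptprc and Csf1r among them, averaged at most 2.28 CPM in AE and 0.724 in ISC. The part of these cells in the Cd36 counts was not tested.

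Slc27a4, which encodes the fatty acid transport protein Fatp4 with acyl-CoA synthetase activity, was low outside the villus. Its level was 20.3, 16.3 and 17.4 CPM at E12.5, 24.1, 26.2 and 24.5 at E14.5, and 19.7, 27.1 and 22.5 in ISC. AE gave 370, 834 and 871 CPM, far above all 9 other libraries. AE exceeded ISC 29.9-fold (log2 4.90, SE 0.28, adjusted p = 4.89e-09). Neither E14.5 against E12.5 (log2 0.47, 95% interval -0.06 to 1.00, adjusted p = 0.131) nor ISC against E14.5 (log2 -0.11, interval -0.64 to 0.42, adjusted p = 0.722) passed. All 3 E14.5 libraries lay above all 3 E12.5 libraries, and the comparison passed in a fit of its 6 libraries alone (log2 0.51, adjusted p = 0.000323) and without AE replicate 1 (adjusted p = 0.00322). ISC against E12.5, with overlapping libraries, did not pass (log2 0.36, adjusted p = 0.213) but passed in the fit of its 6 libraries (adjusted p = 0.0487) and without AE replicate 1 (adjusted p = 0.0129).

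Acsl5, the main long-chain acyl-CoA synthetase of the small intestine, was already high in the embryo. E12.5 gave 115, 99.9 and 115 CPM, E14.5 gave 254, 266 and 243, ISC gave 179, 204 and 180, and AE gave 1767, 2952 and 2602. All 4 groups were separate, in the order AE, E14.5, ISC and E12.5. Acsl5 rose 2.31-fold from E12.5 to E14.5 (log2 1.21, SE 0.16, adjusted p = 3.33e-05). It was 1.36-fold lower in ISC than at E14.5 (log2 -0.44, SE 0.16, adjusted p = 0.0266), a call that 4 of the 12 single-library omissions removed with adjusted p up to 0.0784 (each of E14.5 replicates 1 and 2 and ISC replicates 1 and 3). AE exceeded ISC 13-fold (log2 3.70, SE 0.17, adjusted p = 1.10e-09).

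Acsl3, a synthetase of the endoplasmic reticulum and of nascent lipid droplets, had its highest levels in the embryo. It reached 173, 161 and 185 CPM at E12.5 and 238, 243 and 214 CPM at E14.5. Adult cells held less, with 67.8, 70.9 and 86.7 CPM in ISC and 60.03, 69.1 and 75.7 CPM in AE. Acsl3 rose 1.34-fold from E12.5 to E14.5 (log2 0.42, SE 0.12, adjusted p = 0.00904) and was 3.08-fold lower in ISC than at E14.5 (log2 -1.63, SE 0.12, adjusted p = 4.74e-08). AE and ISC overlapped and did not differ by the test (log2 -0.14, 95% interval -0.40 to 0.12, adjusted p = 0.313), although under upper-quartile scaling Acsl3 was lower in AE (log2 -0.34, adjusted p = 0.0163). It was the only member not called higher in AE than in ISC.

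Mogat2, the monoacylglycerol acyltransferase of fat absorption, was low in stem cells and at E12.5 and high in the villus. E12.5 gave 7.25, 6.08 and 4.70 CPM, E14.5 gave 21.0, 21.0 and 21.7, ISC gave 4.06, 8.17 and 3.17, and AE gave 232, 323 and 307. The E12.5 and ISC libraries overlapped and every other pair of groups was separate. Mogat2 rose 3.52-fold from E12.5 to E14.5 (log2 1.82, SE 0.26, adjusted p = 5.67e-05). It was 4.15-fold lower in ISC than at E14.5 (log2 -2.05, SE 0.27, adjusted p = 1.33e-05), and 56.2-fold higher in AE than in ISC (log2 5.81, SE 0.30, adjusted p = 1.90e-09). ISC and E12.5 were not separated (log2 -0.24, 95% interval -0.83 to 0.36, adjusted p = 0.457), but without ISC replicate 2 the stem cell level was lower (log2 -0.74, adjusted p = 0.00917).

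Dgat1, which adds the last acyl chain of triglyceride in the endoplasmic reticulum, climbed at every step. It gave 19.7, 24.5 and 22 CPM at E12.5, 44.4, 46.4 and 46.2 at E14.5, 114, 116 and 81.2 in ISC, and 757, 1085 and 954 in AE. No 2 groups overlapped. The 3 steps were 2.07-fold (log2 1.05, SE 0.16, adjusted p = 9.74e-05), 2.27-fold (log2 1.18, SE 0.16, adjusted p = 1.54e-05) and 8.98-fold (log2 3.17, SE 0.17, adjusted p = 2.28e-09).

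Dgat2, an unrelated enzyme that catalyses the same reaction, had its lowest level in stem cells. It gave 25.4, 19.7 and 17.2 CPM at E12.5, 44.6, 43.7 and 41.4 at E14.5, 12, 13.2 and 8.48 in ISC, and 155, 260 and 236 in AE. Here too no 2 groups overlapped, but ISC was 3.87-fold below E14.5 (log2 -1.95, SE 0.21, adjusted p = 2.16e-06) and 1.86-fold below E12.5 (log2 -0.89, SE 0.21, adjusted p = 0.00169). Dgat2 rose 2.08-fold from E12.5 to E14.5 (log2 1.06, SE 0.20, adjusted p = 0.000629) and was 19.4-fold higher in AE than in ISC (log2 4.28, SE 0.23, adjusted p = 2.61e-09).

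**Figure D2:**
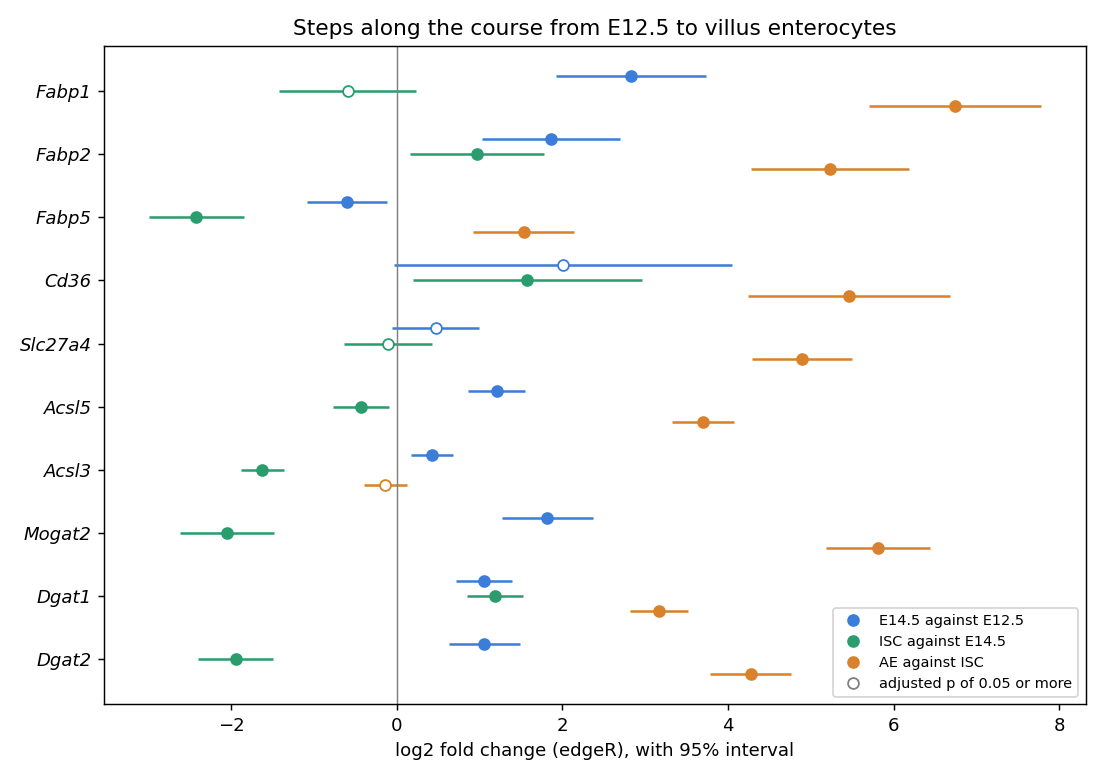
Log2 fold change (edgeR) of each gene at the 3 steps E14.5 against E12.5, ISC against E14.5 and AE against ISC, with bars for the 95% interval and open symbols where the adjusted p was 0.05 or more. The AE against ISC values lie between 1.53 and 6.74 for 9 genes and at -0.14 for Acsl3, while the ISC against E14.5 values spread from -2.42 to 1.58.

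The villus groups could also be set against the embryo directly. AE exceeded E14.5 for 8 members and was lower for Fabp5 and Acsl3, where 78.2% of all genes tested were called (36.7% higher and 41.5% lower), and the counts against E12.5 were the same, where 82.1% were called (38.4% higher and 43.7% lower). The libraries did not overlap for any member in either comparison, as for 81.5% and 82.5% of all genes. Against E12.5 the differences reached 502-fold for Fabp1 (log2 8.97, SE 0.54) and 529-fold for Cd36 (log2 9.05, SE 0.74), the latter resting on 17 embryonic counts. Fabp5 was 1.86-fold and Acsl3 3.40-fold lower in AE than at E14.5 (adjusted p = 0.00419 and 1.05e-08, edgeR). ISC exceeded E12.5 for Fabp1, Fabp2, Cd36 (not by limma-voom), Acsl5 and Dgat1, was lower for Fabp5, Acsl3 and Dgat2, and did not pass for Slc27a4 and Mogat2, where 68.5% of all genes were called (33.9% higher and 34.6% lower). For 8 members the ISC and E12.5 libraries did not overlap, against 73.9% of all genes. These comparisons share libraries with the 3 steps above and are not independent of them.

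The balance between members of the same role was examined within each library, where scaling between libraries plays no part. The difference between files in not-unique alignments, given below, may remain in these ratios and was not tested. Of the 50-base stretches in Acsl5 and Acsl3 transcripts, 4.78% and 3.59% recur in other genes of the reference. Values are log2 ratios of counts per kb of exon, tested across the 4 groups by an exact permutation test of the F statistic (differences in any direction) over 369600 assignments of the 12 libraries, and adjusted over 4 ratios. Fabp5 to Fabp1 went from 0.71 ± 0.50 (SD, n = 3) at E12.5 to -2.73 ± 0.03 at E14.5, -4.36 ± 0.83 in ISC and -9.69 ± 0.69 in AE (exact p = 6.5e-05, the smallest the permutations can give, adjusted 0.00013). Fabp5 was thus the more abundant per kb at E12.5, and Fabp1 was 829-fold above it in AE. All 4 groups were separate.

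Acsl5 to Acsl3 moved through even balance, from -0.76 ± 0.05 at E12.5 to 0.03 ± 0.04 at E14.5, 1.22 ± 0.24 in ISC and 5.03 ± 0.27 in AE (n = 3 each, exact permutation p = 6.5e-05, adjusted 0.00013). In linear terms Acsl3 was 1.69-fold above Acsl5 at E12.5 and Acsl5 was 32.7-fold above Acsl3 in AE. Dgat2 to Dgat1 was -0.36 ± 0.40 at E12.5 and -0.34 ± 0.08 at E14.5, which overlapped, then -3.47 ± 0.07 in ISC and -2.38 ± 0.15 in AE (exact permutation p = 0.00065, adjusted 0.00065, n = 3 each). Dgat1 was 11.1-fold above Dgat2 per kb in stem cells and 5.21-fold above it in the villus. Fabp2 to Fabp1 alternated, at 1.86 ± 0.06, 0.89 ± 0.10, 2.57 ± 0.46 and 0.85 ± 0.29 over E12.5, E14.5, ISC and AE (exact permutation p = 0.00058, adjusted 0.00065, n = 3 each), with overlap between E14.5 and AE.

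**Figure D3:**
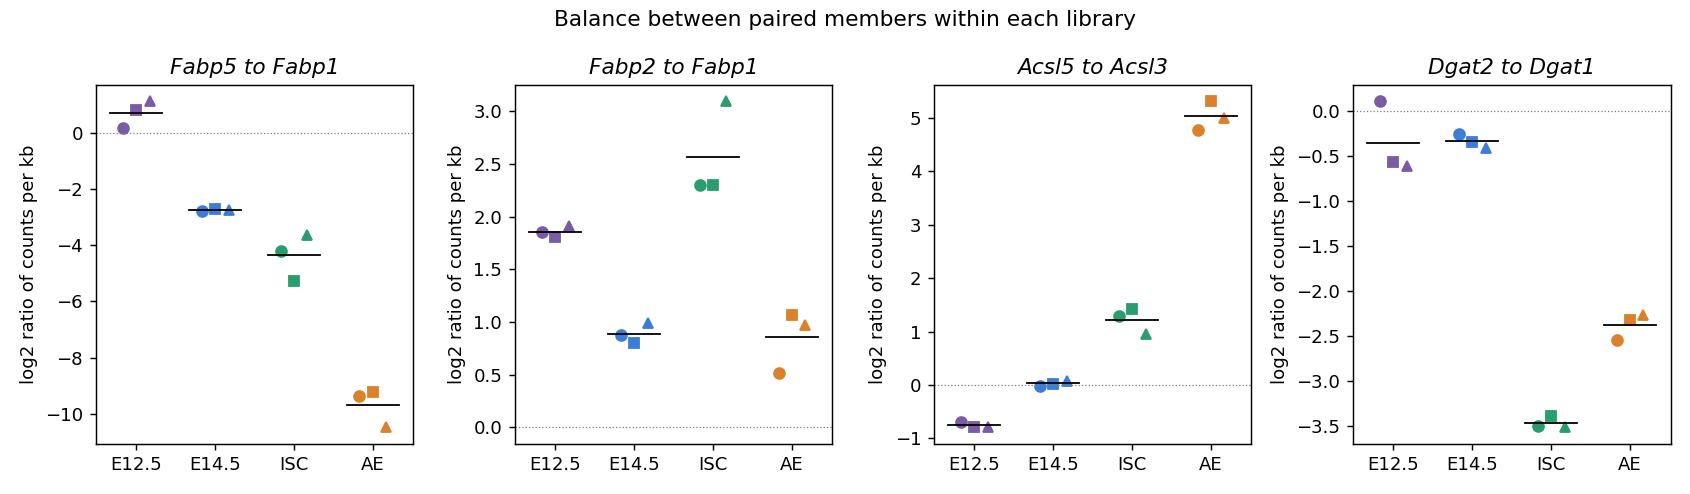
Log2 ratio of counts per kb between paired genes in each library (circles, squares and triangles are replicates 1, 2 and 3, lines are group means, the dotted line is equal abundance). Fabp5 to Fabp1 declines to -9.69 in AE, Acsl5 to Acsl3 climbs from -0.76 to 5.03, and Dgat2 to Dgat1 is lowest in ISC at -3.47.

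Ranked per kb, the members changed order between groups. Acsl3 was the most abundant member at E12.5 with 43.8 ± 2.99 CPM per kb (SD, n = 3), followed by Fabp2 with 35.7 ± 6.86 and Acsl5 with 25.9 ± 2.08. At E14.5 Fabp2 led with 130 ± 5.65, and in ISC Fabp2 (253 ± 102) was followed by Dgat1 (55.0 ± 10.4) and by Fabp1 and Acsl5 (46.4 ± 27.4 and 44.1 ± 3.36). In AE, Acsl5 (575 ± 143) and Dgat1 (494 ± 87.4) ranked 87 and 105 of all 21735 genes, while Acsl3 (17.3 ± 1.99) ranked ninth of the 10 members and Fabp5 (5.78 ± 2.45) last. Cd36 was the scarcest member in E12.5, E14.5 and ISC.

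A pair of libraries each lay at one end of their group for many members. The share of all genes placed in this way was not computed, so whether the counts are particular to the members is not known. AE replicate 1 was the lowest AE library for 10 of 10 members. Its enterocyte marker sum was 25916 CPM against 53150 and 49426 in the other two AE libraries, and its sum of 4 Paneth markers was 6891 CPM against 2906 and 2900. ISC replicate 2 was the highest ISC library for 8 of 10 members, with an enterocyte marker sum of 1363 CPM against 809 and 626 in the other two. The part of these cell mixtures in the members' spread was not tested. Mesenchymal markers (11 genes) summed to 24.1 to 32.7 CPM at E12.5, 246 to 321 at E14.5, 4.37 to 5.65 in ISC and 1.8 to 5.14 in AE. They thus moved with the E14.5 against E12.5 step and, in the other direction and further, with ISC against E14.5. The 4 Paneth markers summed to 8.83 to 9.99 CPM at E14.5, 2314 to 4007 in ISC and 2900 to 6891 in AE, so they also moved with ISC against E14.5. The part of these cells in the members' differences was not tested. Not-unique alignments were listed as 3.06% to 5.96% of reads in each E12.5 and ISC library and as 0 in each E14.5 and AE library. All 3 steps and AE against E12.5 cross this difference in the files and cannot be told apart from it. The ratio tests over the 4 groups include it too. The comparisons AE with E14.5 and ISC with E12.5 do not cross it.

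The wider pathway was read from 6 lists of other genes, 70 in all, of which 59 passed the filter. From E12.5 to E14.5, 26 of the 59 rose and 10 fell, in ISC against E14.5 25 were higher and 14 lower, and in AE against ISC 38 were higher and 7 lower. Of all genes tested, 23.6% rose and 25.6% fell at the first step, 30.2% were higher and 30.6% lower at the second, and 32.6% were higher and 35.2% lower at the last. The counts of the single lists below stand beside the same shares.

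Among 13 other binding and transport proteins, of which 9 were tested, 4 rose and 4 fell from E12.5 to E14.5, 4 were higher and 3 lower in ISC than at E14.5, and 2 were higher and 1 lower in AE than in ISC. Slc27a2, a very-long-chain acyl-CoA synthetase and transporter, was high in both adult groups, at 7.63 ± 0.884 CPM at E12.5, 2.45 ± 0.296 at E14.5, 246 ± 35.8 in ISC and 270 ± 102 in AE (SD, n = 3). ISC exceeded E14.5 by 101-fold (log2 6.65, adjusted p = 1.97e-10, edgeR). Fabp6, the ileal bile acid binding protein, reached 229 ± 230 CPM in AE, so its spread equalled its mean, against 11.6 ± 6.96 in ISC (adjusted p = 3.95e-05). Slc27a1, the transporter known from muscle and fat, was the single gene of the list lower in AE, at 16.2 ± 3.98 against 80.4 ± 6.95 CPM in ISC (5.00-fold, adjusted p = 2.79e-08).

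Of 6 other activating enzymes, 4 were tested. Over the steps, 1 rose and 1 fell from E12.5 to E14.5, 2 were higher and 1 lower in ISC than at E14.5, and 3 were higher in AE than in ISC, with the last at a log2 of 0.07. Acsl4, which prefers arachidonic acid, was, as Acsl3, lower in stem cells than in the embryo, at 82.5 ± 4.85 and 62.4 ± 4.24 CPM at E12.5 and E14.5 against 4.59 ± 2.06 in ISC (13.8-fold lower than at E14.5, adjusted p = 9.98e-08). Acsl1, the form known from liver and fat, rose 3.40-fold from E12.5 to E14.5 (40.4 ± 5.89 to 137 ± 3.73 CPM, adjusted p = 4.90e-07). Acsl6 was 12.9-fold higher in AE than in ISC, at 18.1 ± 6.37 against 1.42 ± 0.547 CPM (adjusted p = 1.66e-07).

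The glycerol 3-phosphate route is the alternative to Mogat2. Of its 15 tested genes, 6 rose and 2 fell from E12.5 to E14.5, 6 were higher and 4 lower in ISC than at E14.5, and 9 were higher and 5 lower in AE than in ISC. The 5 lower genes were Gpam, Gpat2, Agpat4, Agpat5 and Agpat6, named after their values were seen. Gpam, a mitochondrial enzyme of the first acylation, was 2.84-fold lower, at 7.91 ± 2.66 against 23.2 ± 3.52 CPM (adjusted p = 8.27e-06). Gpd1, which makes glycerol 3-phosphate, went from 2.42 ± 0.116 CPM at E14.5 to 95.8 ± 11.2 in ISC and 1047 ± 176 in AE (adjusted p = 6.34e-12 and 4.38e-10). Glycerol kinase (Gyk) was 22.2-fold higher in AE than in ISC, at 184 ± 90.4 against 8.32 ± 2.87 CPM (adjusted p = 7.20e-08). Agpat9, now called Gpat3, was 3.91-fold higher in ISC than at E14.5, with 17.8 ± 2.42 against 4.52 ± 0.522 CPM (adjusted p = 6.46e-06), and 29.0% of its 50-base stretches recur in other genes.

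Of 14 tested droplet and lipolysis genes, 5 rose and 2 fell from E12.5 to E14.5, 4 were higher and 2 lower in ISC than at E14.5, and 9 were higher and 1 lower in AE than in ISC. Cidec, a droplet fusion protein, was 20.3-fold higher in AE than in ISC (47.1 ± 19.2 against 2.34 ± 0.794 CPM, adjusted p = 1.60e-07). Plin2, a droplet coat protein, rose 1.96-fold from E12.5 to E14.5 (12.6 ± 1.19 to 24.8 ± 0.666 CPM, adjusted p = 4.59e-05) and was 2.64-fold higher again in ISC (65.4 ± 11.4 CPM, adjusted p = 5.21e-07). Pnpla2, the first lipase of droplet triglyceride, was 3.78-fold higher in ISC than at E14.5 (158 ± 23.4 against 41.8 ± 1.84 CPM, adjusted p = 5.10e-07).

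Of 5 lipoprotein assembly genes, all tested, 3 rose and 1 fell from E12.5 to E14.5. In ISC against E14.5, 1 was higher (Tm6sf2), 1 was lower (P4hb, log2 -0.44, edgeR adjusted p = 0.00729) and 3 did not pass. All 5 were higher in AE than in ISC, with fold changes from 2.37 to 4.63 on the log2 scale. Mttp, which loads triglyceride onto apolipoprotein B, rose 6.36-fold from E12.5 to E14.5 (21.6 ± 1.58 to 137 ± 1.33 CPM, adjusted p = 1.03e-07) and was 24.8-fold higher in AE (3013 ± 517 CPM) than in ISC (121 ± 30.3, adjusted p = 6.17e-10). Apob itself fell 1.74-fold from E12.5 to E14.5, from 1981 ± 107 to 1135 ± 110 CPM (log2 -0.80), with an adjusted p near the threshold (0.0475, edgeR). Tm6sf2, which takes part in lipid loading of secreted particles, was 8.94-fold higher in ISC than at E14.5 (20.8 ± 1.22 against 2.40 ± 0.787 CPM, adjusted p = 2.99e-08) and 16.4-fold higher in AE than in ISC (342 ± 80.7 CPM, adjusted p = 2.55e-09).

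Of 12 transcriptional regulators, 7 rose from E12.5 to E14.5 and the other 5 did not pass, 8 were higher and 3 lower in ISC than at E14.5, and 10 were higher in AE than in ISC while 2 did not pass. Ppara, a nuclear receptor for fatty acids, rose 4.30-fold from E12.5 to E14.5 (8.45 ± 1.51 to 36.5 ± 1.41 CPM, adjusted p = 1.51e-07). Mlxipl, the carbohydrate-response factor ChREBP, was 27.5-fold higher in ISC (814 ± 64.8 CPM) than at E14.5 (29.7 ± 2.44, adjusted p = 1.32e-11). Creb3l3, a membrane-bound factor of liver and gut, was 21.9-fold higher in AE (420 ± 161 CPM) than in ISC (19.3 ± 9.02, adjusted p = 9.02e-08), and Hnf4g 9.17-fold (1491 ± 349 against 163 ± 23.3, adjusted p = 2.73e-09).

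**Figure D4:**
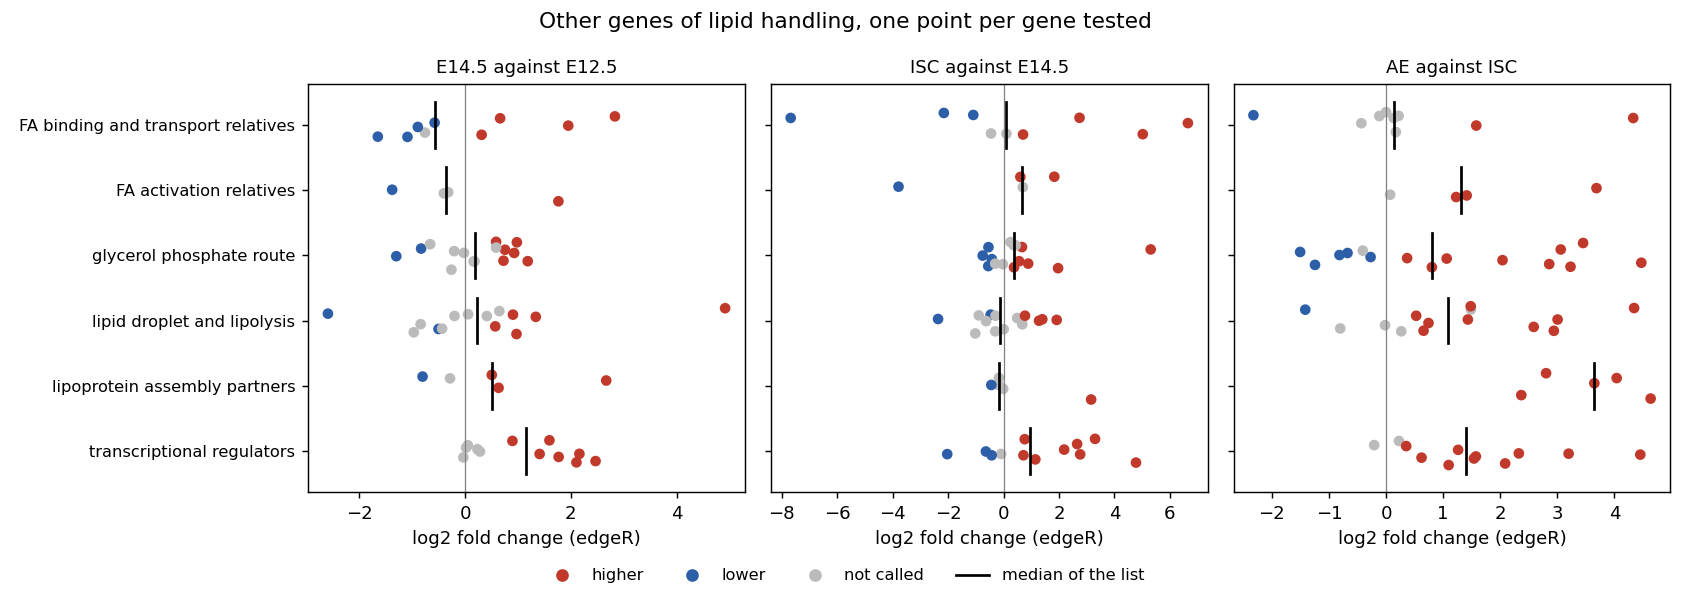
Log2 fold change (edgeR) of the 59 tested genes of the 6 wider lists at the 3 steps, 1 point per gene (red higher, blue lower, grey not called, vertical lines are list medians, vertical scatter has no meaning). The leftmost point at ISC against E14.5 is Fabp7, at 0 counts in all ISC libraries, so its plotted value depends on the prior count. All 5 lipoprotein assembly genes lie to the right of 0 at the AE against ISC step.

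The profile of each member was compared with all 10800 other genes reaching 10 CPM in a group, by the root mean square (RMS) difference of centred log2 CPM over the 12 libraries. Slc27a4 was nearest to the brush border peptidase Anpep (0.25) and to Ephx2 (0.27), and Mogat2 to Ceacam18 (0.44) and the peptidase Enpep (0.48). Fabp1 was nearest to Ggt1 (0.39) and Aldh1a1 (0.53), Fabp2 to Cgref1 (0.33) and the ceramidase Asah2 (0.35), and Cd36 to Aldh1a1 (0.57) and Fabp2 (0.61). Dgat1 was nearest to Pstpip2 (0.20) and the microvillar bundling protein Pls1 (0.25), Dgat2 to 4933404O12Rik (0.27) and Scin (0.30), and Acsl5 to Ahnak (0.21) and Anxa2 (0.24). Among the embryonic members, Fabp5 was nearest to Akap17b (0.28) and Asap1 (0.29), and Acsl3 to Zbtb34 (0.17) and Cobll1 (0.21). Among the members themselves, Slc27a4 and Acsl5 were the closest pair (0.57) and Fabp5 and Cd36 the farthest (3.95). Fabp5 and Acsl3 were closer to each other (0.77) than to any of the other 8.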

How the data were processed

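RNA was measured by RNA-seq in 12 libraries. Per the labels' protocols, each held 50000 sorted cells, and 50 ng of RNA went into an Ovation cDNA amplification and a NEBNext library preparation. The authors deposited unnormalised counts, 1 number per gene symbol and library. The submitters' processing notes list mm9 and these tools: HTSeq 0.6.1p1, DESeq2 1.6.3, SAMtools 1.2, STAR 2.3.1z13 and bcl2fastq 1.8.4. Neither the annotation nor the strand setting is stated there, so reads of overlapping or antisense genes could not be told apart. The 5 closing entries that name no gene were left out of library sizes and tests. Of these, the entry for reads outside genes held 33.4% to 58.1% of a file's total. Replicate pairs all differed by more than sampling noise, but unequally. The chi-square per degree of freedom over genes was 3.48 to 10.2 at E14.5 and 13.2 to 18.0 at E12.5. In ISC it was 20.9 to 52.6, and in AE 28.3 to 146, where the pairs with AE replicate 1 gave 146 and 133. The edgeR fit of all 12 libraries shares its spread per gene between groups, so the AE spread also enters comparisons without AE.

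From these counts, edgeR 4.0.16 in R 4.3.3 fitted all 12 libraries (TMM scaling, filterByExpr, glmQLFit and glmQLFTest, no block), with Benjamini-Hochberg adjustment over 15342 genes and a threshold of 0.05. The same fit was run on simulated data first. Alternatives were other scalings, DESeq2 1.42.0, limma-voom 3.58.1, no filter, fits of 6 libraries, a replicate block and leaving out each library. Exon lengths and shared 50-base stretches came from GENCODE transcripts of GRCm38 and promoters from RefSeq, matched by symbol; mm9 coordinates were not used. Ratios added 0.5 counts to each gene. Named genes of the wider lists were the 2 largest called changes per list and comparison with at least 5 CPM and no overlap between libraries, of which a part is printed, and the 2 nearest profiles per member. The members and lists were chosen with earlier results of these data known. The p-values measure the spread between libraries, which came from separate pools or guts for the E12.5 and adult groups. For E14.5 the number of embryos per library is not given, so how far its spread is one between animals is not known.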

Additional observations from a re-analysis of the deposited data

How the results depend on the processing

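Single members gave 1140 values under 19 alternatives and 6 comparisons. Of these, 1099 kept their side of the threshold, 31 lost a call and 10 gained one. No called value changed sign, but some uncalled values did. Acsl3 in AE against ISC (log2 -0.14) reached 0.009, and Mogat2 in ISC against E12.5 (log2 -0.24) reached 0.02. In AE against E14.5 and AE against E12.5, 190 of 190 held in each, and all 52 alternatives of the 4 ratios held. The least stable comparison was ISC against E14.5, where the 3 members called higher became 1 under RLE scaling and 1 under limma-voom, and 1 to 3 when single libraries were left out, with the Cd36 call lost in 12 and the Fabp2 call in 7 of 19 alternatives. The 1 member lower at E14.5 than at E12.5 (Fabp5) became 0 to 1 when single libraries were left out. Members lower in AE than in ISC went from 0 to 1 under upper-quartile scaling (Acsl3), which moved the median of all genes by -0.20 in that comparison, -0.24 in AE against E14.5 and -0.26 in AE against E12.5. The causes were not tested. Same-numbered libraries correlated at only -0.06 to 0.05 in their deviations from the group means. In ISC against E12.5 each ISC library matched best with the E12.5 library of its own number (0.019, 0.027 and 0.034). Values this small cannot decide whether replicate numbers pair the libraries. With a replicate block the members called higher in ISC than at E14.5 went from 3 to 2 (Cd36, adjusted p = 0.0635 by edgeR). No other member call changed. Depth limits Cd36 most, at 17 counts over the E12.5 group.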
